A study of Mus musculus with 2 samples.

Results

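Replication-dependent histone genes, which lie in clusters named Hist1 to Hist4 in the array's gene names, were examined in C2C12 myotubes exposed to exosomes of pancreatic cancer cells or of pancreatic duct cells. Members were chosen by name, as every non-control probe whose gene name begins with Hist1h to Hist4h. This gave 56 genes and 68 probes, among 37055 named genes with a value on both arrays. By histone type they were 6 linker histone H1 genes, 18 H2A, 14 H2B, 9 H3 and 9 H4 genes. By cluster, 42 genes belonged to Hist1, 10 to Hist2, 3 to Hist3 and 1 to Hist4. The theme was selected on differences already seen between these same arrays, so the values are a description without any test.

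The 2 groups, of 1 array each, were C2C12 cells, mouse myoblasts that fuse into muscle fibre-like myotubes, grown for 4 to 6 days in 2% horse serum and kept in flasks of 25 cm2. One culture received 4 µg of KPC-exo for 24 h, that is, exosomes (small secreted vesicles) of 1 mouse pancreatic cancer line raised from a tumour of mice carrying KrasLSL-G12D/+, Trp53LSL-R172H/+ and Pdx1-Cre. In such mice Cre recombinase is driven by the promoter of the pancreatic gene Pdx1. The control culture received MPDC-exo, which are exosomes secreted by a duct epithelial line from mouse pancreas (MPDC), at a dose not given in the sources used here. Both cultures were of the same line and medium, and total RNA (0.5 µg) was amplified to Cy3-labelled cRNA for a 1-colour Agilent array. With 1 array per group, no difference below has a replicate check.

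As background, a nucleosome wraps DNA around a core of histones H2A, H2B, H3 and H4, and H1 binds the linker DNA between cores. The clustered genes supply these proteins in bulk when DNA is replicated, and their mRNAs usually end in a conserved stem-loop instead of a poly(A) tail. Dividing myoblasts use them during S phase, whereas a myotube nucleus has left the cell cycle. Some members can also give polyadenylated mRNAs in differentiated cells.

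The probes of 1 type can resemble each other closely, and the sequences below show how far. They are the 60-base probes of the array, 5′ to 3′, with bases that differ from the first probe of each set in capitals at the best ungapped alignment. For H4, the set comprises the earlier of the 2 probes of Hist1h4k and Hist1h4d and the single probes of Hist1h4c and Hist1h4j. Within the aligned bases, the probe of Hist1h4c differs from that of Hist1h4k at 8 of 60, that of Hist1h4d at 4 of 52 and that of Hist1h4j at 2 of 48. These 4 probes come first because all showed a lower signal on the KPC-exo array.
Hist1h4k: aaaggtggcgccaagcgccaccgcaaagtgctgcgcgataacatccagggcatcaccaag
Hist1h4c: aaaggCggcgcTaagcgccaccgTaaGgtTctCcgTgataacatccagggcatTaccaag
Hist1h4d: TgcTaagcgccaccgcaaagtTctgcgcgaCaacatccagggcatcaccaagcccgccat
Hist1h4j: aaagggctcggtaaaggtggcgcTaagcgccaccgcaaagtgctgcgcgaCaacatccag
On mm9, chromosome 13, they lie at chr13:21842279-21842338 (minus strand), chr13:23790223-23790282 (minus), chr13:23673515-23673574 (plus) and chr13:21826989-21827048 (plus).

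The second set holds H2A probes, shown because 8 H2A genes could not be counted as separate measurements. Relative to the probe of Hist1h2ak, that of Hist1h2an differs at 6 bases and those of Hist1h2af and Hist2h2aa2 at 5 bases each of 60.
Hist1h2ak: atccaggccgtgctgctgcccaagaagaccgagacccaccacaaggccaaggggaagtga
Hist1h2an: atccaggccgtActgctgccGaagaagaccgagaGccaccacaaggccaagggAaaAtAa
Hist1h2af: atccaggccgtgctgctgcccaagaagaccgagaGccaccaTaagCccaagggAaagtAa
Hist2h2aa2: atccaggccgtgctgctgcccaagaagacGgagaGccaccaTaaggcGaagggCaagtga
The Hist1 probes lie at chr13:21845304-21845363 (minus), chr13:21902669-21902728 (plus) and chr13:23626113-23626172 (plus), and that of Hist2h2aa2 lies in the Hist2 cluster at chr3:96043781-96043840 (minus).

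The third set holds a pair of H2B probes, shown because both had a higher signal on the KPC-exo array. The probe of Hist1h2ba, a testis-type H2B gene, differs from that of Hist1h2bb at 5 of 49 aligned bases.
Hist1h2bb: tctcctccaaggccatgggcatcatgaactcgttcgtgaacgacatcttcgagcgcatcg
Hist1h2ba: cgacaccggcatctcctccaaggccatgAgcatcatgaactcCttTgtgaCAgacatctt
They lie at chr13:23838827-23838886 (plus) and chr13:24025811-24025870 (minus).

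Signals were taken as log2 of the processed signal minus the 75th percentile of the array, which was 380.4 intensity units for MPDC-exo and 639 for KPC-exo. Each gene took the value of its brightest probe and was counted as measured if that probe stood well above background in both groups. This held for 46 of the 56 members and for 16913 named genes in all. The other 10 members, namely 1 H1, 5 H2A, 3 H2B and 1 H3 gene, were too dim for this in both groups (not well above background). No member was well above background on 1 array alone, so no lower bound of a fold had to be given. Genes of 1 type whose representing probes matched over at least 45 of 60 bases were counted once, which reduced the 46 measured members to 39 groups of copies. Only representing probes were compared. The 9 H4 genes were therefore counted singly, although the earlier probe of Hist1h4k, printed above, matches those of Hist1h4c, Hist1h4d and Hist1h4j over 52, 48 and 46 bases.

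Histone types differed in how far apart the arrays were. The H4 genes had the lowest median difference, KPC-exo minus MPDC-exo, at -1.56 on the log2 scale, which is a 2.95-fold lower signal. H1 followed with a median of -0.85 and H2A with -0.48, while H3 lay at 0.03 and H2B at 0.24. The median of all measured genes was 0.06, with a SD of 0.35 over genes. When the arrays were centred on 7 spike-in probes instead, every gene moved up by 1.00, and the medians of H1 (0.15) and H2A (0.52) turned positive while that of H4 stayed negative (-0.56). Differences between types, and those relative to all genes, do not depend on that choice. In RNA of a whole culture, fewer cells of a type and less RNA per cell cannot be told apart.

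Of the 46 measured members, 35 had a difference below 0 and 11 above 0. At least 1.5-fold lower were 14 members (30.4%), beside 3.7% of all measured genes, and at least 1.5-fold higher were 3 members (6.52%), beside 3.68%. At least 2-fold lower were 9 members (19.6%), beside 1.19% of all measured genes, and 1 member (2.17%) was at least 2-fold higher, beside 0.727%. With centring on spike-in probes, which moved the median of all measured genes to 1.06, 9 members lay below and 37 above 0. At that centring 5 were lower and 27 higher by at least 1.5-fold, and 0 lower and 11 higher by at least 2-fold. The share of all measured genes past these folds was not counted there, so these counts cannot be read as a rise of histone genes. The shares above are set by the selection of the theme and are given for scale only. Of the 14 members at least 1.5-fold lower, 8 were H4, 3 H1, 2 H2A and 1 H3 genes, and the 3 higher ones were the H2B genes Hist1h2ba, Hist2h2bb and Hist3h2ba. The latter pair did not hold throughout, since the other probe of Hist2h2bb gave -1.38 and Hist3h2ba had a difference of 0.17 with normexp background correction.

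**Figure D1:**
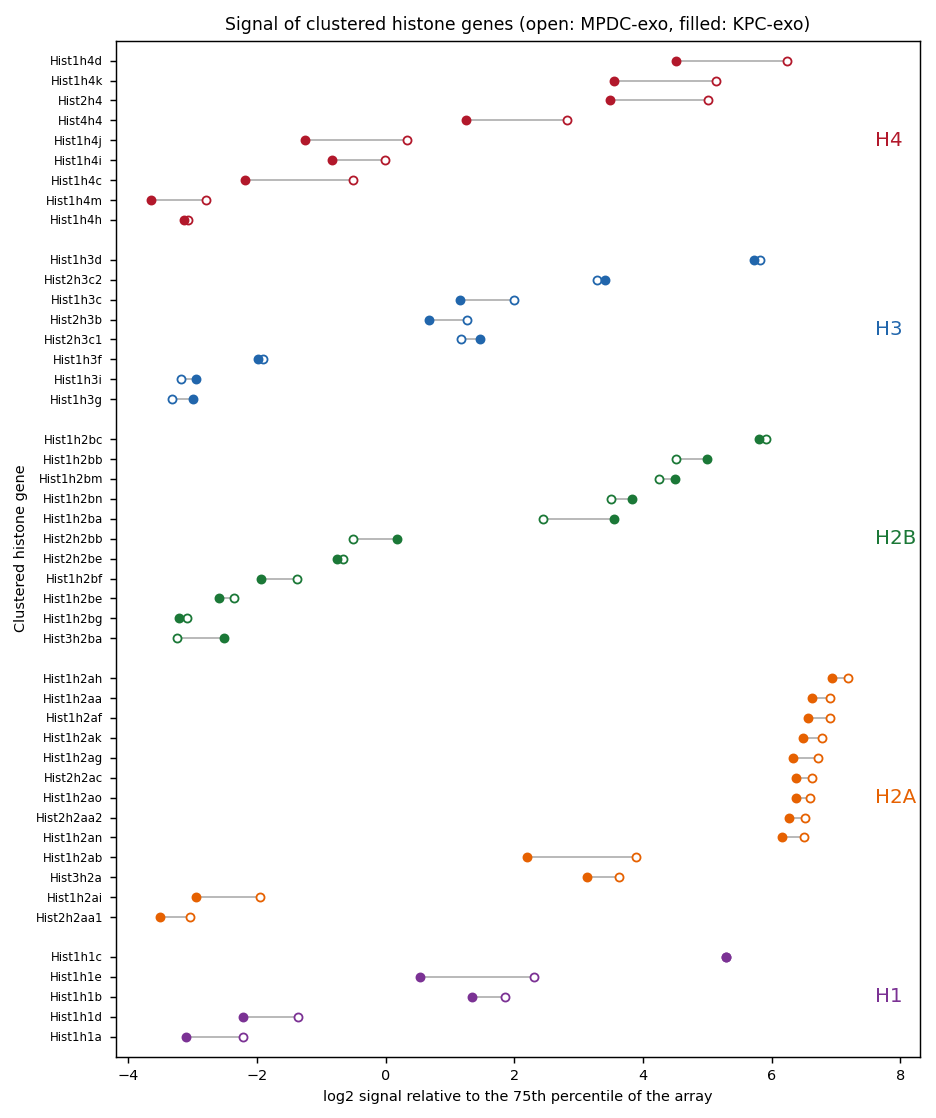
Log2 signal relative to the 75th percentile of each array (horizontal axis) for the 46 measured clustered histone genes, with 1 open point for MPDC-exo and 1 filled point for KPC-exo per gene. The filled points of most H4 genes lie well to the left of the open ones, by up to 1.71, whereas the H3 genes differ by -0.83 to 0.32; centring on spike-in probes would move every filled point to the right by 1.00.

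Histone H4, the core histone with the fewest sequence variants, was measured for all 9 of its genes. Hist1h4d (RefSeq symbol H4c4) gave a log2 signal of 6.23 after MPDC-exo and 4.52 after KPC-exo. Its probe is spotted 10 times on each array, so the technical error is known. The spots gave 6.23 ± 0.05 (SD, n = 10 spots) and 4.52 ± 0.06, and their difference was -1.71 ± 0.03, between -1.76 and -1.68 at every spot. The spots of both arrays did not overlap, since the lowest MPDC-exo spot read 6.16 and the highest KPC-exo spot 4.60. This error covers the spotting and reading of 1 labelled RNA, not the variation between cultures.

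Hist1h4c (H4c3) read -0.51 after MPDC-exo and -2.18 after KPC-exo, a difference of -1.68 or 3.19-fold. Hist1h4k (H4c12) read 5.14 and 3.55, a difference of -1.59. Hist1h4j (H4c11) read 0.33 and -1.25, a difference of -1.57. These 3 genes of the Hist1 cluster thus showed nearly equal differences. Outside Hist1, Hist2h4 (H4c14, chromosome 3) read 5.01 and 3.49, a difference of -1.52, and Hist4h4 (H4f16, chromosome 6) read 2.81 and 1.25, a difference of -1.56. Genes on 3 chromosomes therefore showed nearly the same difference, with a median of -1.57 over the 7 genes of Hist1. The H4 values are not all separate measurements, because the files list the probe of Hist1h4c with 3 RefSeq transcripts, those of Hist1h4k with 4 and 2, and those of Hist1h4j and Hist1h4m with 2 each. The representing probes of Hist1h4d, Hist2h4 and Hist4h4 are listed with 1 transcript each.

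A smaller difference was seen at 3 H4 genes, and with centring on spike-in probes these turned positive (Hist1h4m 0.14, Hist1h4i 0.17 and Hist1h4h 0.94) while the other 6 stayed negative. Hist1h4m (H4c17) read -2.79 and -3.65, a difference of -0.86, and Hist1h4i (H4c9) read -0.01 and -0.84, a difference of -0.83. Hist1h4h (H4c8) read -3.07 and -3.14, a difference of only -0.06. Hist1h4m and Hist1h4h were near the lower limit of what the arrays measured, since the lowest probes well above background read -3.61 and -3.76. Across the 9 genes the difference correlated with the mean signal at Pearson r = -0.68 and Spearman rho = -0.55, a description over genes of 1 pair of arrays.

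Histone H3, the core histone that carries many of the best known regulatory marks on its tail, was measured for 8 of 9 genes. With centring on spike-in probes all 8 lay above 0. Hist1h3d (H3c4) read 5.81 and 5.73, a difference of -0.08, and Hist1h3f (H3c7) -1.91 and -1.98, also -0.08. The probe of Hist1h3d is listed with 4 RefSeq transcripts and that of Hist2h3b with 3, so their values are not those of single genes. Hist2h3c2 (H3c15) had 2 measured probes, with differences of 0.09 and 0.14. The lowest were Hist1h3c (H3c3), with 1.99 and 1.15 and a difference of -0.83, and Hist2h3b (H3c13), with 1.26 and 0.68 and a difference of -0.58. On the higher side, Hist1h3g (H3c8) read -3.32 and -3.00, a difference of 0.32 that turned to -0.09 with normexp background correction, and Hist2h3c1 (H3c14) read 1.17 and 1.46, a difference of 0.30. Hist1h3c was the single H3 gene at least 1.5-fold apart, so H3, the partner of H4 within the nucleosome core, did not share the low median of H4.

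Histone H2A forms the core's outer dimers together with H2B, and 13 of its 18 genes were measured. All 13 had a difference below 0, between -1.69 and -0.22, although 2 of them alone were at least 1.5-fold lower; with centring on spike-in probes 11 of the 13 turned positive. Hist1h2ab (H2ac4) read 3.89 after MPDC-exo and 2.20 after KPC-exo, a difference of -1.69 or 3.23-fold. Hist1h2ai (H2ac13) read -1.95 and -2.95, a difference of -1.0 or 2.01-fold. Hist3h2a (H2aw) read 3.62 and 3.13 at its earlier probe and 3.03 and 2.95 at its later one, with differences of -0.49 and -0.08. Hist2h2aa1 (H2ac18) read -3.04 and -3.51, close to background, a difference of -0.47. The H2A median of -0.48 lies midway between this value and that of the earlier Hist3h2a probe, so it rests partly on a dim probe.

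A block of 8 H2A genes, 6 of Hist1 and 2 of Hist2, shared probe sequence closely enough to be counted as 1. Their differences had a mean of -0.30 ± 0.05 (SD over 8 genes) and ran from -0.38 to -0.25. Hist1h2ah (H2ac12), a member of the block, read 7.19 and 6.93, a difference of -0.26. The probes of Hist1h2ah and Hist1h2ak are each listed in the files with 4 RefSeq transcripts, so these values describe a pool of copies and not single genes. Hist1h2ao (H2ac23), outside the block, read 6.60 and 6.38, a difference of -0.22. Its probe overlaps on mm9 that of Hist1h2an, which is in the block, and that of Hist1h2ai, so these may not be separate measurements. With each copy counted singly the H2A median was -0.34 in place of -0.48.

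Histone H2B, the other dimer partner, was measured for 11 of 14 genes and lay on both sides of 0, with 6 genes above and 5 below, whereas all 11 lay above 0 with centring on spike-in probes. Hist1h2ba (H2bc1) read 2.44 after MPDC-exo and 3.55 after KPC-exo, a difference of 1.11 or 2.16-fold. Hist3h2ba (H2bu2) read -3.25 and -2.52, a difference of 0.73, close to the background limit and 0.17 with normexp background correction. Hist1h2bb (H2bc3) read 4.52 and 4.99, a difference of 0.48, and Hist1h2bn (H2bc15) 3.50 and 3.83, a difference of 0.33. The H2B median of 0.24 was the value of Hist1h2bm (H2bc14). The probes of Hist1h2bb and Hist1h2bm are listed with 4 RefSeq transcripts each and those of Hist1h2be and Hist1h2bf with 2 each. Their values may thus describe pools of copies. Hist1h2ba and Hist1h2bb were counted singly, although their probes match over 44 bases, just under the cut of 45. Hist1h2bc (H2bc4), which read 5.91 and 5.79, differed by -0.12 and Hist1h2bg (H2bc8) also by -0.12. The lowest H2B genes were Hist1h2bf (H2bc7), with -1.37 and -1.95 and a difference of -0.57, and Hist1h2be (H2bc6), with -2.35 and -2.59 and a difference of -0.23. No H2B gene was at least 1.5-fold lower by its representing probe.

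The linker histone H1 was measured for 5 of 6 genes, and the missing gene was Hist1h1t, which encodes a testis-specific H1. Hist1h1e (H1f4) read 2.30 after MPDC-exo and 0.53 after KPC-exo, a difference of -1.77 or 3.40-fold, the lowest among the 46 measured members. Hist1h1a (H1f1) read -2.22 and -3.10, a difference of -0.89, and Hist1h1d (H1f3) -1.36 and -2.21, a difference of -0.85. Hist1h1b (H1f5) read 1.86 and 1.33, a difference of -0.53. Hist1h1c (H1f2), a main H1 gene of somatic cells, read 5.28 and 5.29, a difference of 0.01, and its second probe gave 0.05. H1 genes therefore ran from the lowest difference among the members to almost none. With centring on spike-in probes, 1 of the 5 H1 genes kept a negative difference.

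**Figure D2:**
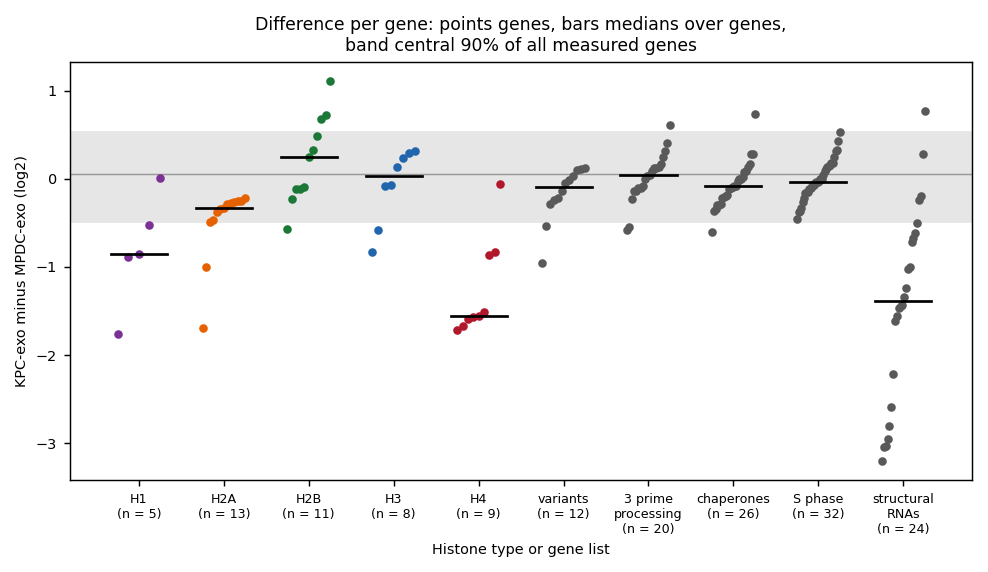
KPC-exo minus MPDC-exo log2 difference (vertical axis) per measured gene, for the 5 histone types and for lists of replacement variants, 3′ end processing factors, chaperones, S phase genes and structural RNAs; bars are medians over genes and the grey band spans the 5th to the 95th percentile of all measured genes, -0.49 to 0.53. H4 genes and structural RNAs lie mostly below the band, with medians of -1.56 and -1.39, while the other lists stay near 0; centring on spike-in probes would move every point up by 1.00 and turn the H1 and H2A medians positive.

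Histone genes of different types sit side by side in the clusters, so the differences of H4 genes were set beside those of their neighbours. Within 10000 bases of an H4 probe, counted on mm9 between the probes that represent the genes, 8 pairs of an H4 gene and the next measured gene of another type were found. In 6 of these 8 pairs the H4 gene had the lower difference, and the neighbours ranged from -1.0 to -0.08. Hist1h4d, at -1.71, lay between Hist1h3d (-0.08, 5770 bases away) and Hist1h2be (-0.23, 1861 bases away). The probes of Hist1h3d and Hist1h2be are listed with 4 and 2 RefSeq transcripts. The neighbours Hist1h2ak, Hist1h2ah and Hist1h2af belong to the block of H2A copies described above. Several neighbour values thus describe pools of copies and not the adjacent gene alone. The exceptions were Hist1h4m beside Hist1h2ai (-0.86 and -1.0) and Hist1h4h beside Hist1h2af (-0.06 and -0.34). The probes of Hist1h2an (-0.34) and Hist1h2ao (-0.22) overlap that of Hist1h2ai on mm9, and beside either of them Hist1h4m would be the lower. That exception and the lower end of the neighbour range therefore rest on which of the overlapping probes was taken.

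H2A and H2B genes often form divergent pairs that start from a common stretch of DNA. In 3 measured pairs on opposite strands, the H2B gene had the higher difference each time. For Hist1h2aa and Hist1h2ba, 848 bases apart, the differences were -0.27 and 1.11. For Hist1h2ak and Hist1h2bn, 695 bases apart, they were -0.29 and 0.33. For Hist2h2ac and Hist2h2be, 3200 bases apart, they were -0.26 and -0.09. The H2A members of all 3 pairs belong to the block of copies described above, so these are not 3 separate H2A measurements.

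The region searched for promoter motifs was the 250 bases upstream of each start site, taken from RefSeq (GRCm38.p6), where 50 promoters matched 49 members. The motif CCAAT, the CCAAT box bound by NF-Y, was found on either strand in all 6 H1, all 17 H2A and all 12 H2B promoters, in 5 of 7 H3 promoters and in 2 of 8 H4 promoters. It was present in 33.8% of all 32851 promoters. TTTGCAT, the core of the octamer motif bound by Oct-1, was found in 7 of 17 H2A, 6 of 12 H2B and 1 of 8 H4 promoters, beside 4.12% of all promoters, and in none of the H1 or H3 promoters. TATAAA, the TATA box core, was found in 24 of 50 member promoters (48%), beside 12.4% of all. A match describes these letters in this window and not a working site. The upstream regions of an H2B gene and of an H4 gene are printed because their differences lay on opposite sides of 0, with matches on either strand in capitals. The difference of Hist1h2bb is that of a probe listed with 4 RefSeq transcripts, so it may not belong to this promoter alone. The regions cover chr13:23746484-23746733 (H2bc3, the Hist1h2bb of the array) and chr13:23581318-23581567 (H4c4, the Hist1h4d of the array), both on the plus strand of GRCm38.p6.
Hist1h2bb: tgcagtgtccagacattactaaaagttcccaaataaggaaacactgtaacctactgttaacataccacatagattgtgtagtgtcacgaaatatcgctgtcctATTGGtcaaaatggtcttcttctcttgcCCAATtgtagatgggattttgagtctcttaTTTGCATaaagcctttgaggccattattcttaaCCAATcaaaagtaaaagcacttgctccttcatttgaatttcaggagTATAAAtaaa
Hist1h4d: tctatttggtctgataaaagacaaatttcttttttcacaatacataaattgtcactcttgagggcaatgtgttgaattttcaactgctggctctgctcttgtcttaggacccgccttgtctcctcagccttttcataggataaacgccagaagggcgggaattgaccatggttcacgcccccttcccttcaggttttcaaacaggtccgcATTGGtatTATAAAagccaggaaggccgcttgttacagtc

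The place of a probe in its transcript was compared, since a histone mRNA that runs past the stem-loop into a poly(A) tail is reached by late probes and a short stem-loop mRNA is not. The 10 measured probes that start at or after base 700 of their listed transcript, from 8 genes, had a median difference of 0.05, between -0.47 and 0.68. The 43 probes that start earlier had a median of -0.38, between -1.77 and 1.11. At least 1.5-fold lower were 17 of these 43, 10 of them H4 probes, and none of the 10 late probes. At least 1.5-fold higher were 2 of the 43 and 1 of the 10 late probes. Over all measured genes 3.7% were lower and 3.68% higher by that fold. With so small a share, the absence among 10 late probes cannot be read as a result about them. Within types the contrast differed. Late and early H2A probes had similar medians, -0.28 (2 probes) and -0.31 (12). Late H2B probes had a lower median than early ones, 0.01 (4 probes) against 0.24 (9). Base 700 is a fixed cut and does not mark the stem-loop of each transcript. H2B probes that hold the loop sequence TTTTCAG started at bases 371 to 433. Those of Hist1h2bg (start 581) and Hist1h2bc (start 632) lack it and counted as early, with a difference of -0.12 each. Late H3 probes had a higher median, 0.14 (3 probes) against -0.08 (6), and the single late H1 probe gave 0.01 against -0.85 for the 5 early ones. No H4 gene had a late probe, and the earlier H4 probes (start 24 to 345) had a median of -1.57, so type and probe position cannot be fully told apart. Over the 46 genes the correlation of the difference with the start was weak (Pearson r = 0.22, Spearman rho = 0.21), as was that with probe GC content (-0.15 and -0.19) and with signal (0.02 and 0.01). Median GC content of the probes was 58.3% for H4, 55% for H2A, 50% for H1, 48.3% for H3 and 46.7% for H2B, and its part in the differences was not tested.

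Among genes with 2 measured probes, only Hist1h1c, Hist3h2a and Hist2h2bb had an early and a late one and allowed this comparison. At Hist1h1c the early probe gave 0.05 and the late one 0.01, and at Hist3h2a they gave -0.49 and -0.08. Both probes of Hist1h4d were early and gave similar differences, -1.67 and -1.71. So did the early probes of Hist1h4k, -1.69 and -1.59. The earlier Hist1h4d probe is listed with 3 RefSeq transcripts and those of Hist1h4k with 2 and 4. These values may thus describe pools of copies. At Hist2h2be both probes were late and gave 0.12 and -0.09. Hist2h2bb (H2bc18) stood apart from these. Its early probe, starting at base 433, read 0.08 after MPDC-exo and -1.29 after KPC-exo, a difference of -1.38. Its late probe, starting at base 1348, read -0.51 and 0.17, a difference of 0.68. Over all 5767 genes with at least 2 measured probes, the pooled SD between probes was 0.36, so the gap of 2.05 at Hist2h2bb is several times that spread. The probes lie 8698 bases apart on mm9 but 915 bases apart by transcript start, and the files list them under different transcript records.

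**Figure D3:**
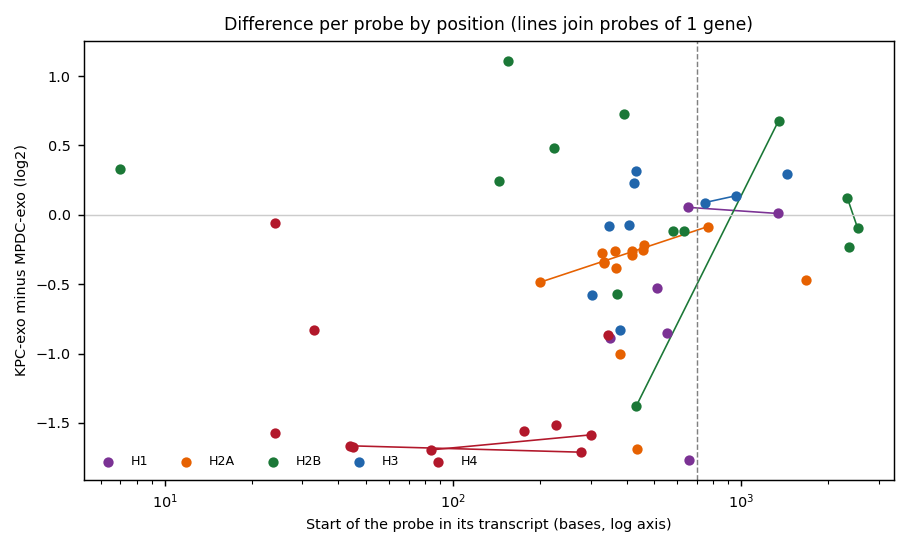
KPC-exo minus MPDC-exo log2 difference (vertical axis) of each measured probe against the start of the probe in its listed transcript (horizontal log axis, bases), coloured by histone type, with lines joining probes of 1 gene and a dashed line at base 700. Late probes lie between -0.47 and 0.68, and the steep line is Hist2h2bb, whose probes differ by 2.05; centring on spike-in probes would move every point up by 1.00.

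Several probes reach the stem-loop itself. TTTTCAG, which spans the loop in many histone genes, occurred on the sense strand in 8 of 68 member probes (11.8%), beside 0.847% of all probes on the array. The measured 6 had a median difference of -0.72, between -1.38 and 0.73, beside -0.26 for the 47 measured probes without it. The stretches are printed below to show how alike the stem-loops of 4 genes with different values are, with TTTTCAG in capitals. They lie at chr3:96074090-96074111 (plus), chr13:23665632-23665653 (minus), chr13:21903994-21904015 (plus) and chr13:21874787-21874808 (minus) on mm9.
Hist2h2bb: aaaaggctcTTTTCAGagccac
Hist1h2bf: caaaggctcTTTTCAGagccac
Hist1h4m: taaaggcccTTTTCAGggccat
Hist1h3i: aaaaggctcTTTTCAGagcccc
The differences of these probes were -1.38 for Hist2h2bb, -0.57 for Hist1h2bf, -0.86 for Hist1h4m and 0.23 for Hist1h3i. Hist1h3i, the single positive value of these 4, read -3.18 and -2.95, near background, and its difference turned to -0.08 with normexp background correction. Of the measured probes with TTTTCAG that are not printed, that of Hist1h2ai gave -1.0 and that of Hist3h2ba 0.73 (0.17 with normexp background correction). The polyadenylation signal AATAAA occurred in 4 of 68 member probes (5.88%), beside 9.77% of all probes.

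Replacement histone variants are made outside S phase from polyadenylated mRNAs of single genes. Of 16 on the array, 12 were measured, with a median difference of -0.09, and 1 was at least 1.5-fold lower and none higher. That gene was H1f0, the linker variant of differentiated cells, which read -0.64 and -1.60, a difference of -0.96. H1fx, another linker variant, had a difference of -0.54, Cenpa, the centromeric H3, -0.28, and H2afz, an H2A variant, -0.24. The linker variants thus had the largest differences among the variants, on the same side of 0 as 4 of the 5 clustered H1 genes. Outside the members, 1 measured probe matched a member over at least 45 bases, that of the variant H2afj, which read 6.83 and 6.61, a difference of -0.22.

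Factors that make and destroy stem-loop histone mRNAs showed no comparable difference. All 20 measured genes for 3′ end processing and decay had a median of 0.04, with none at least 1.5-fold lower and 1 higher. Slbp, which binds the stem-loop, read -0.09 and 0.31, a difference of 0.40. Cstf2, a cleavage stimulation subunit, had 0.61, Srrt, a cap-associated factor, -0.58 and Zcchc11, a terminal uridylyl transferase, -0.54 at its brightest and 0.41 at its other measured probe. Further probes of Slbp reached down to -0.07. Among 13 measured genes for transcription at the histone loci the median was 0.04 and none was 1.5-fold apart. Npat, the coactivator of histone genes, had a difference of 0.31, Cdk2, the kinase that activates it, 0.25, E2f3 and Gon4l 0.21 each (-0.14 at the other Gon4l probe), and Nfyc, an NF-Y subunit, -0.38.

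The proteins that carry histones to DNA were also near 0. The 26 histone chaperone genes, with histone acetyltransferase 1, had a median of -0.08, with 1 at least 1.5-fold lower (Rbbp4, a CAF-1 subunit, -0.61, but 0.38 at its other measured probe) and 1 higher (Asf1a, an H3 and H4 chaperone, 0.73). Mms22l had -0.37, with 0.10 at its other probe, and Nap1l4 -0.35. The 32 genes of S phase and DNA replication had a median of -0.04, with none 1.5-fold apart. Cdc6, a licensing factor, had a difference of 0.53, with -0.04 at its other probe, and Pcna, the sliding clamp, 0.42, whereas Fen1, a flap nuclease, had -0.45 and Rfc5, a clamp loader subunit, -0.37, with up to 0.39 at its other probes.

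Structural RNAs were low on the KPC-exo array, as were most H4 genes but not H2B or most H3 genes. H1 and H2A, with medians of -0.85 and -0.48, lay between. Centring on spike-in probes moved every gene up by 1.00 and turned the H1 and H2A medians positive. Of 27 structural RNAs that lack a poly(A) tail, 24 were measured and their median difference was -1.39. Of these, 19 were at least 1.5-fold lower and 1 higher, and their summed signal on the KPC-exo array was 0.479 of that on the MPDC-exo array. Rnu1b1, a U1 snRNA, read 5.93 and 2.72, a difference of -3.21, Rnu1b6 had -3.04, Rn28s1 -3.03 and Rnu1a1 -2.95. In contrast, Snord7 had 0.76 and Rnu12 0.28. The part of these RNAs, or of what they share with stem-loop mRNAs, in the histone differences was not tested.

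Markers of cell state were set beside the histones as well. All 20 myotube markers were measured, with median signals of 5.12 after MPDC-exo and 5.16 after KPC-exo, so the labelled cell type was present on both arrays. Their median difference was 0.03 and their summed signal ratio 1.04. The 12 markers of proliferating cells were all measured, with a median of -0.32, none 1.5-fold apart, and a summed signal ratio of 0.809. Birc5 had -0.45, and Top2a and Ccnb1 had -0.41 each (with the probes of Top2a between -0.69 and 0.09), and Bub1 had -0.39. Myoblast markers (5 of 7 measured, median -0.06) and fibroblast markers (7 of 8, median 0.10, summed ratio 0.783) were measured too. Without S100a4, which read 9.58 and 9.05, the summed fibroblast ratio was 0.984. Of 8 macrophage and leukocyte markers on the array 7 were measured, with a median of 0.15, 2 of them at least 1.5-fold lower and 1 higher. Of 13 pancreatic duct and epithelial markers 3 were measured, with a median of -0.01, and Epcam, Cdh1, Krt8, Krt18 and Krt7 were not well above background. The part of proliferating cells in the histone differences was not tested.

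**Figure D4:**
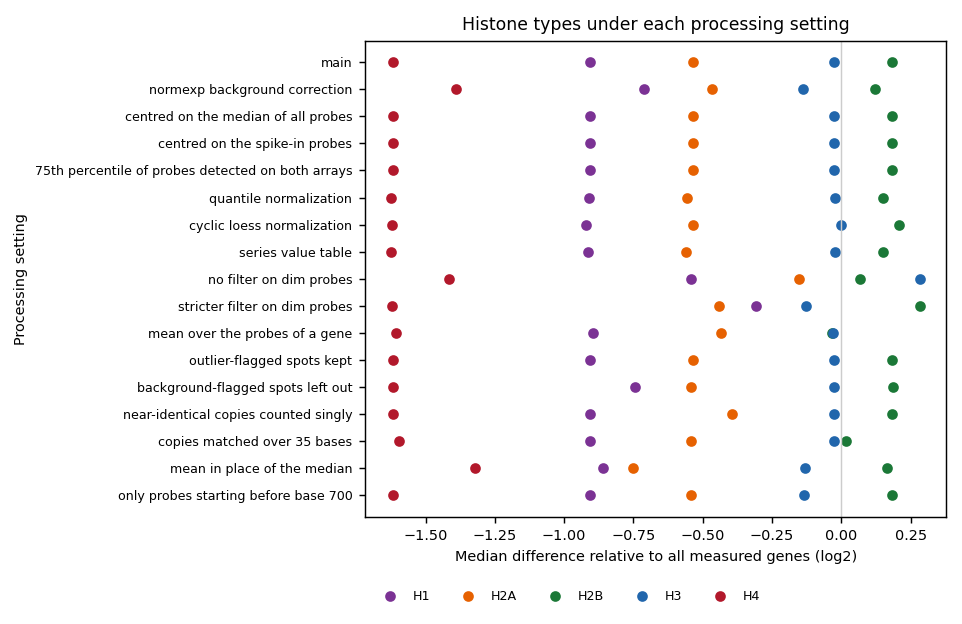
Median log2 difference of each histone type relative to the median of all measured genes (horizontal axis) under the main setting and 16 alternatives (vertical axis). Alternatives that only shift a whole array cannot move these points. Under every setting shown, H4 lies lowest, between -1.62 and -1.32, and H1 and H2A lie below 0; without subtracting the median of all genes, centring on spike-in probes would place H1 and H2A above 0.

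The order of the types was checked under 16 other processing settings, relative to the median of all measured genes. H4 ranged from -1.62 to -1.32, H1 from -0.92 to -0.31 and H2A from -0.75 to -0.15. H2B ranged from -0.03 to 0.28 and H3 from -0.14 to 0.28, so neither had a settled side. H4 had the lowest value in each of these settings.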

How the data were processed

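Total RNA of 2 C2C12 cultures was measured on 1 Agilent 1-colour array each. Agilent Feature Extraction 10.7.1.1 read the spots, per the submitters' processing notes, and the deposited scanner files give background-subtracted spot intensity, not normalized between arrays, with mm9 probe positions per the file headers. The deposited series table holds log2 values (column medians 4.88) that correlated with the scanner values at 1.00 and whose sorted columns differed by at most 0.000481; its making is not stated there. It served only as an alternative.

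Flagged spots (102 on MPDC-exo, 166 on KPC-exo) were left out, spots of a probe averaged, and each array's 75th percentile subtracted on the log2 scale. No spot was saturated, and 45.9% and 47.6% of 56578 probes were well above background. Values are intensities, so the number of arrays limits precision. The members, lists and comparisons were chosen with earlier results of these data known. Named are, per type, the 3 lowest and 2 highest differences, genes at least 2-fold apart, genes with probes over 0.5 apart, the brightest gene, and up to 4 members per list with the largest differences; other genes named were chosen after their values were seen. Neighbouring genes were also compared after the data were seen. RefSeq gave promoters and current symbols. Planned work on coding positions was not used here. The calculations were tested on simulated data (Python 3.11.15, pandas 2.3.3, R 4.3.3, limma 3.58.1).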

Additional observations from a re-analysis of the deposited data

How the results depend on the processing

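Values here are medians relative to all measured genes, against -0.91 for H1, -0.54 for H2A, 0.18 for H2B, -0.03 for H3 and -1.62 for H4 in the values reported. Of 80 values of types under alternatives, 67 moved by less than the spread between probes (0.36 divided by the root of the number of groups). This count includes the settings that only shift a whole array, which could not move these values. With normexp background correction H1 was at -0.71 and H4 at -1.39, Hist3h2ba at 0.12 and Hist1h3g at -0.14. With no filter on dim probes the types were at -0.54 (H1), -0.15 (H2A), 0.0659 (H2B), 0.28 (H3) and -1.42 (H4), with 5 members at least 1.5-fold and 2 at least 2-fold higher. With a filter at the median signal of measured genes, H1 was at -0.31 over 2 genes, and 6 members were at least 1.5-fold lower, 5 at least 2-fold lower and 1 at least 1.5-fold higher, of 25 left. With the mean over a gene's probes H2B was at -0.0340 and Hist2h2bb turned to -0.40. With copies counted singly H2A was at -0.40, with copies matched over 35 bases H2B was at 0.0162, and with the mean for the median H2A was at -0.75 and H4 at -1.32. Centring on spike-in probes moved all genes by 1.00, to a median of 1.06 over all measured genes. It left 5 members at least 1.5-fold and 0 at least 2-fold lower, with 27 and 11 higher. For the member counts under any alternative here, the share of all genes past the same fold was not counted. At a 3-fold threshold 5 members were lower and 0 higher. Using only probes that start before base 700, an alternative chosen after seeing the data, put Hist2h2bb at -1.43. Other causes were not tested. Of 382 values of named genes under alternatives 378 kept their value within that spread, 2 turned and 2 moved, and of 155 of lists 143 kept it. Settings that only shift a whole array, and so could not move these values, are included in both counts. The alternative restricted to wholly coding probes was not run. No paired analysis was possible because each group has 1 array. Dim probes limit Hist1h4h, Hist1h4m, Hist1h3g, Hist1h3i, Hist3h2ba, Hist2h2aa1 and Hist1h2bg, whose signals lay close to background.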
